A study of Caenorhabditis elegans with 2 samples.

Results

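A divergent promoter is the stretch between the starts of 2 genes that are read away from each other on opposite strands. The sites described here are the 302 binding sites of MADF-8 that met the rule given below for such promoters, in whole young adult Caenorhabditis elegans. They were picked from the 1972 sites that the authors kept for a pair of replicates. A site was divergent when its summit, the position of highest signal, fell from 500 bp upstream to 100 bp downstream of protein-coding transcript starts of at least 2 genes, with starts on both strands. Another 835 sites met this for starts of 1 strand and are called one-strand sites, and 835 lay outside all such windows. Divergent sites were 15.3% of all sites and 26.6% of the 1137 promoter sites (95% Wilson interval 24.1% to 29.2%).

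The assay was chromatin immunoprecipitation followed by sequencing (ChIP-seq) of worms of strain RW12322. In this strain a CRISPR insertion at madf-8 on chromosome III, allele st12322, adds the tags TY1, EGFP and 3xFLAG to the protein. The 2 samples are biological replicates of 1 group, young adults of 64 h raised from larvae starved at the L1 stage after bleaching. An antibody against GFP recovered the chromatin after shearing by sonication. All worms carried the tag, and whole animals were used, so the cells in which a site is occupied are not resolved. With 1 group there is no second condition and no test between conditions. Numbers of sites and genes are therefore given with intervals that cover counting error only, and differences between classes of sites were not tested.

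MADF domains are DNA-binding folds related to those of Myb proteins, and worms have a family of proteins that carry one. The worm genome is compact, and neighbouring genes read in opposite directions often have close starts, so that the same accessible DNA can serve both. Transcription can begin in both directions from such DNA, and a protein bound there cannot be assigned to either gene from its position. Many annotated starts of worm genes are sites of trans-splicing, where a leader RNA replaces the first bases of the transcript. Distances to a start are therefore distances to the annotated 5' end and may fall short of the place where transcription begins.

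The sequences around several summits are shown first, because words of 8 bases recur in some of them and are lacking in others. Each of the next 6 windows spans 101 bp centred on the summit and is the reference sequence of the plus strand in assembly WBcel235 (ce11), from the RefSeq copy of the genome. They are the 6 strongest divergent sites outside the first chromosome that hold at least 1 of 3 words of 8 bases, AAGGCGCA, AAAGGCGC and GCGAGACC, on either strand. Capitals mark the words. The first and second words overlap by 7 bases, so both are read from 1 stretch where the 9 bases of AAAGGCGCA occur, and TGCGCCTTT and GGTCTCGC are the same words read from the other strand.
puf-3 / afmd-2, chrIV:13512323-13512423, plus strand: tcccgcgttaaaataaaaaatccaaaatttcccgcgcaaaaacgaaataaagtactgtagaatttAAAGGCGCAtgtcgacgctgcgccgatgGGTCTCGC
T11G6.2 / hars-1, chrIV:10858445-10858545, plus strand: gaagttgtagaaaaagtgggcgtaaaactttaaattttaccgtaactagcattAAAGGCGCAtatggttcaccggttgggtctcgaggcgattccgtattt
bmk-1 / coh-3, chrV:14457224-14457324, plus strand: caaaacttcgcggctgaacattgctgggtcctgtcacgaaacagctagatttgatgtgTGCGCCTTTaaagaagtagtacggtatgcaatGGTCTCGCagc
spn-4 / spe-39, chrV:6785021-6785121, plus strand: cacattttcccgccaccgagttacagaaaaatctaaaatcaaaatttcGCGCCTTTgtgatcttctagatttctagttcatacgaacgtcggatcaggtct
T22D1.8 / T22D1.5, chrIV:6903720-6903820, plus strand: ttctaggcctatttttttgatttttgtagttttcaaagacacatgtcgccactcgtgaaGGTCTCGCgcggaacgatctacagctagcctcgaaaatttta
coh-4 / pid-5, chrV:4175762-4175862, plus strand: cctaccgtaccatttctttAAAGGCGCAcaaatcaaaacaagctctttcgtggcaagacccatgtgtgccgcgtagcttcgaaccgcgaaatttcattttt

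The 6 strongest divergent sites of all hold none of the words. The first 2 of them are shown for contrast, in the same format and without capitals.
cogc-2 / klp-18, chrIV:7039855-7039955, plus strand: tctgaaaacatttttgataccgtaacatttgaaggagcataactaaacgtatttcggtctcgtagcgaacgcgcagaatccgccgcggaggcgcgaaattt
tbb-1 / rib-2, chrIII:10742639-10742739, plus strand: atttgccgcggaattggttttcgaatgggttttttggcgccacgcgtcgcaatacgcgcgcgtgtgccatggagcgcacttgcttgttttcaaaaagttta

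The window at cogc-2 / klp-18 holds a match to AAGGCGCA with 1 mismatch and a match to GCGAGACC with 1 mismatch. At tbb-1 / rib-2 the closest match to any of the words has 2 mismatches. The words thus do not mark every strong site.

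One divergent site lay at the start of madf-8 itself, the gene that carries the tag, which faces gsr-1, for glutathione reductase. Its signal was 81.2. It was in the kept list of neither replicate, and the best candidates of replicates 1 and 2 there had scores of 441 and 178. These 2 scores come from each replicate's own ranked list. In the kept list of the pair the lowest score is 830 and the top score is 1000.

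At 5 divergent sites the first word was followed by exactly 19 bases and then by GGTCTCGC, the third word on the other strand. Capitals again mark the words, and these 35 bases are printed to show the bases between the words. The sequences were picked for this spacing, and other divergent sites with the words in the same orientation had 20 or 30 bases between.
puf-3 / afmd-2, chrIV:13512389-13512423, plus strand: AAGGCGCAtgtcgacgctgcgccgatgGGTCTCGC
ncap-1 / Y110A2AR.1, chrII:2919634-2919668, plus strand: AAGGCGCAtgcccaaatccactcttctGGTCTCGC
C29E4.13 / npp-15, chrIII:7928888-7928922, plus strand: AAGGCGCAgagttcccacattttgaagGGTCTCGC
Y43F8C.13 / ani-3, chrV:19697640-19697674, plus strand: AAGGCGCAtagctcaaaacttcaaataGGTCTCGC
rpn-1 / ribo-1, chrIV:6910244-6910278, plus strand: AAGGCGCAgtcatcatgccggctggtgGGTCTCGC

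No position of the 19 between the words had the same base in all 5 sequences. The sites at Y43F8C.13 / ani-3 and rpn-1 / ribo-1 were kept in replicate 2 alone, and the others in both replicates. The 5 sites had signals between 109.5 and 741. Of these genes, npp-15 encodes a nucleoporin, ani-3 an anillin, rpn-1 a proteasome subunit and puf-3 an RNA-binding protein of the Pumilio family.

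**Figure D1:**
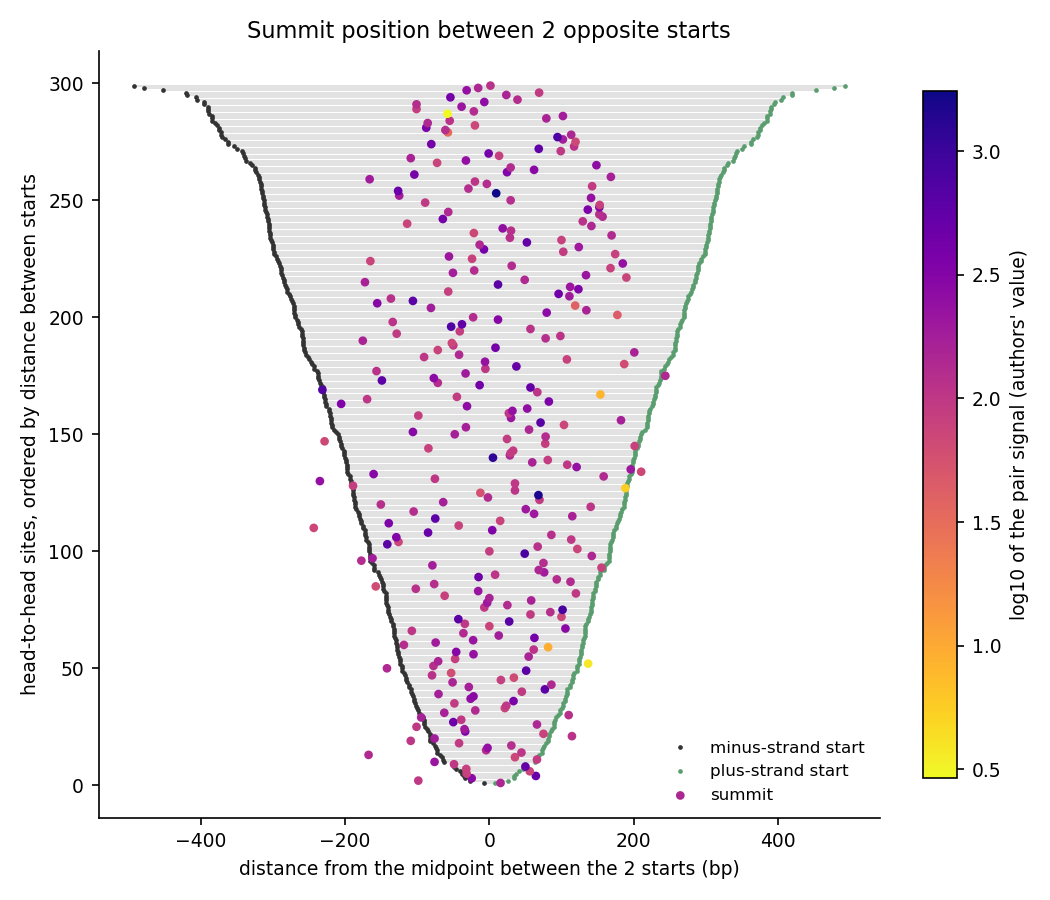
Each row is 1 of the 299 head-to-head divergent sites, ordered by the distance between the 2 starts. The x axis gives the distance in bp from the midpoint, dark dots mark the minus-strand start, green dots the plus-strand start, and coloured dots the summit, coloured by the log10 of the authors' signal for the pair. Most summits lie between the starts, and 202 lie in the inner part of the row, between 25% and 75% of the way across.

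Most divergent sites sat between 2 transcript starts, upstream of both. At 298 of the 302 sites there was 1 gene on each strand, and 4 sites had 3 genes in the window. The sites touched 591 genes in 298 distinct pairs, of which 8 pairs held more than 1 site, and 169 of the genes carry only a sequence name. Starts pointed away from each other at 299 sites and crossed at 3, namely rec-1 / pif-1, T22D1.8 / T22D1.17 and rpb-7 / Y54E10BR.2. The nearest transcript start of each gene was used, and such a start can lie inside a gene. For example, puf-3 lies within afmd-2 and T22D1.5 within T22D1.8, so these sites are not between 2 separate genes. With 1 start per gene, at its annotated 5' end, 284 sites met the rule. The summit was upstream of both starts at 276 sites (91.4%, Wilson interval 87.7% to 94.1%), downstream of 1 start at 25 and downstream of both at 1. The windows reach 500 bp upstream and only 100 bp downstream, so a large upstream share follows in part from the rule. Over the shared windows of the bound head-to-head pairs, 75.3% of bases were upstream of both starts, against 92.3% of the summits at head-to-head sites.

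Summits favoured neither strand and lay more often near the middle than the sequence did. The nearer start was on the minus strand at 146 sites, on the plus strand at 153, and 3 summits were equally far from both. The median distance between the starts was 417.5 bp (quartiles 279 and 585 bp), and it ran from -88 bp, where the starts cross, to 985 bp. Summits lay a median of 129.5 bp from the nearer start and 296.5 bp from the farther one. Among head-to-head sites, 202 of 299 summits (67.6%, Wilson interval 62.1% to 72.6%) lay between 25% and 75% of the way from one start to the other. The share of bases in that part of the shared windows averaged 48.5% over the 294 bound head-to-head pairs. At 77 sites the summit was within 200 bp of both starts, and at another 77 it was over 200 bp from both. As a description over sites, the signal had a Spearman rho of 0.07 with the distance between the starts (299 sites) and 0.13 with the distance to the nearer start (302 sites).

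The closest starts were those of F25H9.6 / F25H9.7, 15 bp apart, followed by T12G3.6 / mrpl-51 (53 bp), gei-14 / slc-25A32 (67 bp), C05C10.7 / C05C10.5 (69 bp) and madf-8 / gsr-1 (75 bp). Signals there were 148, 97.0, 281, 486 and 81.2, and all but the site at madf-8 were kept in both replicates. The farthest were srz-97 / clec-57 (985 bp), tdpt-1 / tfg-1 (957 bp), pgam-5 / npp-21 (905 bp), trpp-5 / aqp-12 (840 bp) and col-38 / rpl-5 (839 bp). Signals at these were 112, 142, 238, 93.9 and 155, and trpp-5 / aqp-12 was kept in replicate 2 alone. Close starts did not go with a uniformly high or low signal.

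Divergent promoters were a small and densely bound part of the genome. The sequence shared by windows of both strands adds up to 0.732 Mb and held 412 summits per Mb (exact 95% Poisson interval 367 to 462). One-strand windows, 13.5 Mb in all, held 62.0 per Mb (57.9 to 66.4), and the rest of the genome 9.70 per Mb (9.05 to 10.4). On autosomes alone the densities were 430.3 and 71.3 per Mb for divergent and one-strand sequence. Both differences exceed their counting intervals. Shared windows lie close to 2 starts by construction, and the part that this closeness has in the difference was not tested.

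**Figure D2:**
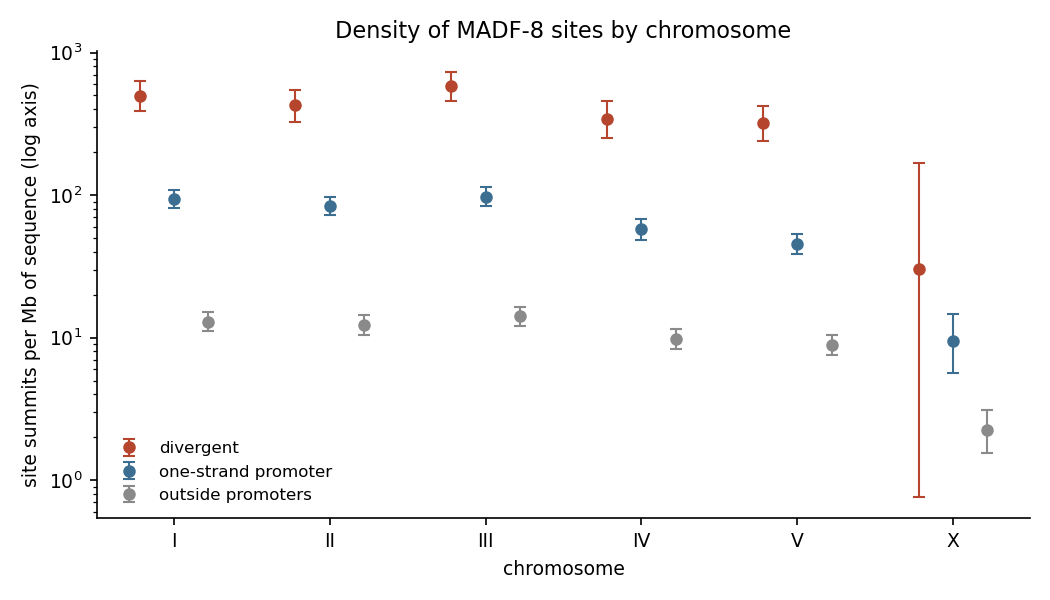
Site summits per Mb of sequence on each chromosome, on a log axis, for divergent windows (left, red), one-strand promoter windows (middle, blue) and sequence outside promoter windows (right, grey), with exact 95% Poisson intervals. On each chromosome divergent sequence has the highest value, from 323 to 584 per Mb on autosomes. On X its interval overlaps those of the other classes, and X has the lowest value of each class.

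Chromosome III had the densest divergent sequence, with 584 summits per Mb (76 sites), and chromosome I followed with 498 (69 sites). Chromosome II had 425 (59 sites), chromosome IV 344 (45 sites) and chromosome V 323 (52 sites). One-strand sequence ran in a like order, with 97.7, 94.5, 83.7, 57.4 and 45.3 per Mb for III, I, II, IV and V. The intervals of neighbouring chromosomes in the divergent order overlap. X held a single divergent site, at 30.3 per Mb (Poisson interval 0.768 to 169), while 4.50% of shared window sequence lies on X. This site, at T08D2.6 / chkr-1 (chrX:182349-182624), had a signal of 114, with 56.4 in replicate 1 and 57.7 in replicate 2. In one-strand sequence X held 9.44 summits per Mb.

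Seen by gene pairs, 298 of the 1925 pairs of genes with shared window sequence held a site in it (15.5%). The share was 22.4% on chromosome III, 19.2% on I, 17.1% on II, 13.0% on IV, 11.0% on V and 1.15% on X (1 of 87 pairs). Between distances of 200 and 700 bp the share varied little, from 19.3% to 24.0% in bins of 100 bp. It was 11.3% (Wilson interval 7.67% to 16.4%) between 100 and 200 bp and 15.6% (8.71% to 26.4%) at distances up to 100 bp. From 700 to 800 bp it was 11.7%, and from 800 to 1000 bp 1.63%. With windows of 500 bp upstream and 100 bp downstream, the shared sequence is short for close starts and for far ones, and longest in between. Neither the lower shares at close starts nor the decline at the far end was separated from this.

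**Figure D3:**
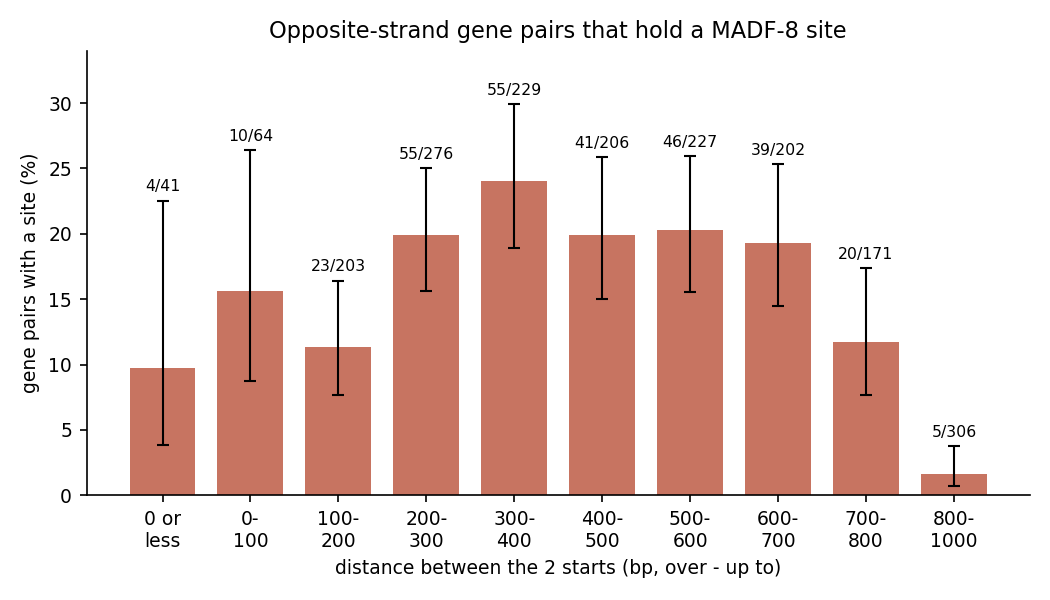
Percent of opposite-strand gene pairs with shared window sequence that hold a divergent site, by the distance between the 2 starts in bp, with 95% Wilson intervals and the number bound over the number of pairs above each bar. The highest bar is at 300 to 400 bp, where 55 of 229 pairs (24.0%) were bound, and the lowest at 800 to 1000 bp, with 5 of 306.

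The signal at divergent sites spanned a wide range. The signal is the authors' value per site, whose scaling is not given in the sources used here, so it serves to rank sites within a list. The lowest divergent site had a signal of 2.92, the median 134.9 and the highest 1755, and the median rank stood at the 57.6 percentile of the whole list. One-strand sites had a median of 129.8 (percentile 55.3), and sites outside promoters 105.7 (percentile 41.7). The strongest 10% of the list took in 40 divergent sites (13.2%, Wilson interval 9.88% to 17.5%), against 12.3% of one-strand sites and 6.47% of sites outside promoters. The quartiles of divergent signals, 96.1 and 236, lay close to those of one-strand signals, 90.5 and 226.

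The strongest divergent site lay between cogc-2, for a subunit of the Golgi tethering complex COG, and klp-18, for a kinesin of the acentrosomal oocyte spindle (chrIV:7039727-7040054). Its signal was 1755, with 771 in replicate 1 and 982 in replicate 2, and its summit lay 325 bp upstream of cogc-2 and 306 bp upstream of klp-18. The next lay between tbb-1, for a beta-tubulin, and rib-2, for a glycosyltransferase of heparan sulfate synthesis (chrIII:10742556-10742813). It had a signal of 1524, with 689 in replicate 1 and 845 in replicate 2. The one after that, between the F-box gene fbxc-23 and csc-1, for a subunit of the chromosomal passenger complex (chrII:13596601-13596894), had 1215, with 557 in replicate 1 and 646 in replicate 2, and its summit was 205 and 195 bp upstream of the 2 starts. These 3 stood apart from the rest, since the next divergent site had a signal of 822.

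The site of 822 joined hrde-1, for a nuclear Argonaute protein that carries germline silencing across generations, to C16C10.13 (chrIII:4176296-4176513), with 381 in replicate 1 and 443 in replicate 2. Y53F4B.9 / Y53F4B.11 (769.5) and cct-5 / F25F2.1 (759) came next, where cct-5 encodes a subunit of the cytosolic chaperonin. The site at puf-3 and afmd-2 (741, with 335 in replicate 1 and 415 in replicate 2) is the strongest of those with the 19-base arrangement shown above. At T11G6.2 / hars-1 (707) the summit was 1 bp downstream of the T11G6.2 start and 462 bp upstream of hars-1, the gene for histidyl-tRNA synthetase.

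Several of the next sites lay between 2 genes of meiosis or the germline. The site between bmk-1, for a kinesin-5 of the spindle, and coh-3, for a meiotic cohesin kleisin (chrV:14457159-14457388), had a signal of 662, with 284 in replicate 1 and 382 in replicate 2. The site between mei-2, for a subunit of the katanin that severs microtubules in meiosis, and syp-6, for a protein of the synaptonemal complex, had 641, with 284 in replicate 1 and 356 in replicate 2. After gpr-2 / rgr-1 (638), spn-4 / spe-39 (623), T22D1.8 / T22D1.5 (616) and clec-87 / rsa-1 (614), the 15 strongest closed with coh-4 and pid-5 (chrV:4175700-4175923; 602, with 256 in replicate 1 and 348 in replicate 2). Here coh-4 encodes a near-identical partner of coh-3 and pid-5 a factor of the piRNA pathway. Of the others, gpr-2 acts in spindle positioning, rgr-1 encodes a Mediator subunit, spn-4 a maternal RNA-binding protein, spe-39 a protein needed to make sperm and rsa-1 a phosphatase subunit that acts at centrosomes. All 15 were kept in both replicates.

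The weakest divergent sites were flanks of stronger ones. The 3 lowest were C37A2.8 / E02D9.1 (2.92), mre-11 / wdr-5.3 (3.81) and cdc-6 / acin-1 (5.70). Each of the 5 divergent sites with a signal below 30 overlapped a stronger site of the list. The site at mre-11 overlapped by 68 bp one with a signal of 154 at the same pair, that at cdc-6 by 75 bp one of 58.5, and that at C37A2.8 by 62 bp a one-strand site of 68.3. In all, 9 divergent sites overlapped a stronger site, 7 of them another divergent site at the same pair. A replicate's site that matches such a flank is that of the stronger neighbour, so the replicate values printed for it are not independent. Merging the overlapping divergent sites left 295.

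Divergent sites recurred in the replicates about as often as one-strand sites and more often than sites outside promoters. Both replicates had an overlapping site at 200 of 302 (66.2%, Wilson interval 60.7% to 71.3%), against 64.1% of one-strand sites, 49.6% of sites outside promoters and 58.3% of all sites. Replicate 1 alone matched 25, replicate 2 alone 54, and neither matched 23. Sites in both had a median signal of 182, those in replicate 1 alone 87.0, in replicate 2 alone 92.5 and in neither 78.1. The companion list called conservative held 285 of the 302, and 282 had the top score of 1000.

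Where both replicates had the site, they ranked it much alike. Replicate 1 signals ran from 39.0 to 771 with a median of 80.3, and replicate 2 signals from 38.4 to 982 with a median of 102. Replicate 2 had the higher value at 161 of the 200 sites, and the scaling of neither list is given in the sources used here. The Spearman rho of the 2 replicates was 0.88 across the 200 divergent sites, 0.91 across 535 one-strand sites and 0.84 across 414 sites outside promoters. This describes sites and not independent samples. The 2 replicate summits lay a median of 11 bp apart. The pair signal was a median of 1.00 times the sum of the 2 replicate signals, so the pair list is not a measurement of its own.

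**Figure D4:**
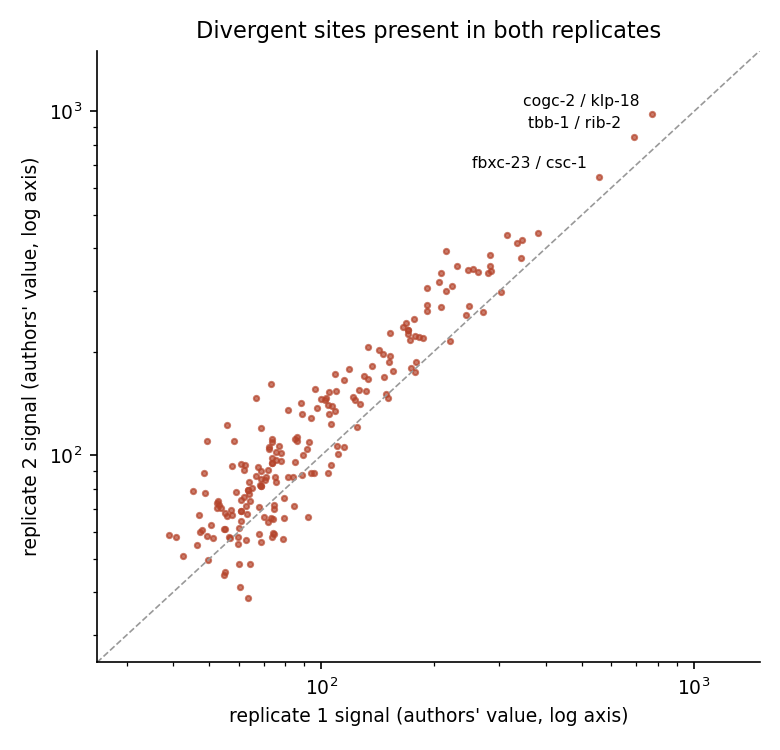
Signal in replicate 1 (x axis) and replicate 2 (y axis), both on log axes in the authors' units, for the 200 divergent sites with an overlapping site in both replicates. The dashed line marks equal values. The 3 strongest sites are named, and 161 of 200 points lie above the line.

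The largest disagreements in rank were at C23G10.7 / rpn-2, at the 16.7 percentile of its list in replicate 1 and the 68.3 percentile in replicate 2, and at rsr-1 / sri-5, at 28.3 and 71.7. At F53C11.4 / F53C11.5 the percentiles were 15.3 and 57.7, and at wht-7 / Y42G9A.1 they were 9.91 and 50.8. All 4 stood higher in replicate 2. They were named after their values were seen.

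Among the listed groups, cell division, ribosomal protein, nuclear pore and meiosis genes had the highest shares of all their members at divergent sites. Among members with a shared window, the shares were 63.1% for cell division, 55% for nuclear pore, 48.9% for cytosolic ribosomal protein, 45% for chromatin and synMuv and 42.9% for meiosis genes. Of the 19973 protein-coding genes, 6.97% had a site in the window and 2.96% were at a divergent site. Among the 3773 genes with a window shared with the other strand, 15.7% were at one. Of the 302 sites, 151 touched a member of at least 1 of 19 gene lists, and 28 did so on both strands. No such counts over all 19 lists are given here for other sites or for unbound pairs. No preference can therefore be read from the 151 or the 28. The lists are described by counts beside the background shares of all genes, with no test. They were chosen with earlier results of these data known, so the shares here and below describe them and test nothing.

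Cell cycle and division genes had the highest share. Of 126 members, 41 (32.5%, Wilson interval 25% to 41.1%) were at a divergent site and 29 at one-strand sites only. Of the 65 members with a shared window, 63.1% were at a divergent site (interval 50.9% to 73.8%), against the 15.7% of all such genes. The strongest members were klp-18, tbb-1 and csc-1, described above. They were followed by the spindle genes bmk-1, mei-2 and gpr-2, the oocyte spindle kinesins klp-16 (600) and klp-15 (599.5) and the replicative helicase gene mcm-6 (408). Kinetochore and checkpoint genes in the group were bub-1, bub-3, mdf-2, fzy-1, knl-3, spdl-1, ndc-80 and czw-1, and cohesin and condensin genes were smc-3, scc-1, scc-3, smc-4, mix-1 and hcp-6. The members cdc-6 and tac-1 had sites with signals of 58.5 and 33.1, and that of tac-1 overlapped a stronger one-strand site of 158.

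Meiosis and synapsis genes came next among the germline lists, with 15 of 68 (22.1%, interval 13.8% to 33.3%) at a divergent site and 12 at one-strand sites only. Led by coh-3 (662), syp-6 (641) and coh-4 (602), they took in rec-8, for another meiotic cohesin kleisin (539), zhp-2, msh-5, syp-4, chk-2 and atm-1. The germ granule and small RNA list had 9 of 75 (12%) at divergent sites and 17 at one-strand sites only, led by hrde-1 (822), pid-5 (602) and the Vasa-like helicase gene glh-2 (529). Oogenesis, eggshell and maternal genes were the other way about, with 7 of 65 (10.8%, interval 5.32% to 20.6%) at divergent sites and 29 (44.6%) at one-strand sites only. Only 20 of these 65 have a shared window, and 35.0% of those 20 were at a divergent site. The 7 were puf-3 (741), spn-4 (623), mex-5 (539), pos-1 (534), puf-7 (356), gld-3 and pgam-5. The first 6 encode RNA-binding or RNA-regulatory proteins, while pgam-5 encodes a mitochondrial phosphatase.

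**Figure D5:**
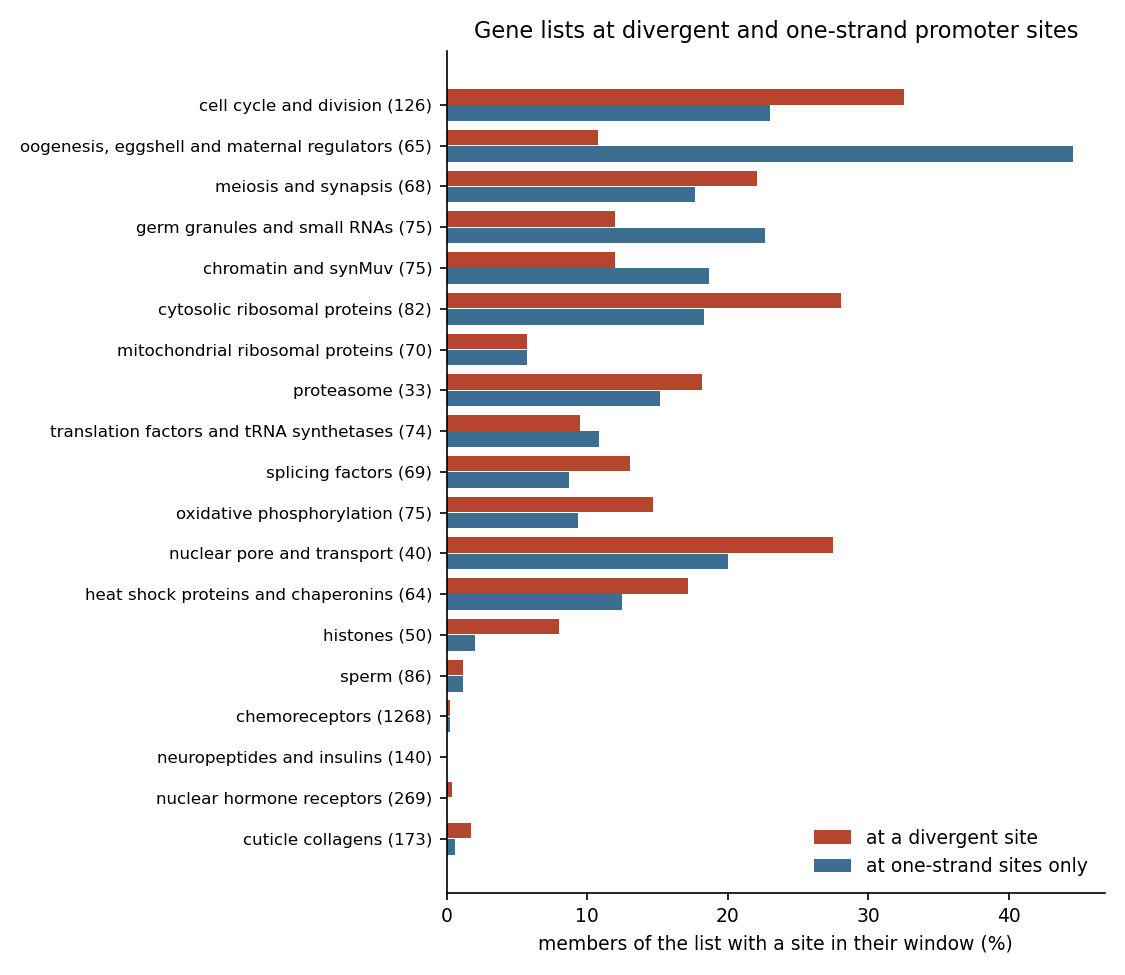
Percent of the members of each of 19 gene lists at a divergent site (upper bar, red) and at one-strand sites only (lower bar, blue), with the number of members in parentheses. Cell cycle genes reach 32.5% at divergent sites and 23% at one-strand sites only, oogenesis genes 10.8% and 44.6%, and the 5 lists at the foot of the plot stay below 2% in both.

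Ribosomal protein genes of the cytosol were also common, with 23 of 82 (28.0%, interval 19.5% to 38.6%) at divergent sites and 15 at one-strand sites only. The strongest were rpl-20 (533), rpl-15 (409) and rpl-7A (307), and 48.9% of the 47 members with a shared window were at a divergent site. Mitochondrial ribosomal proteins differed, with 4 of 70 (5.71%, interval 2.24% to 13.8%), led by mrps-7 (128), mrpl-51 (97.0) and mrps-35 (94.2). The sites at mrps-35 and mrpl-9 were kept in neither replicate. The same held for the cytosolic members rps-9, rps-22, rpl-36, rps-14 and rps-18. The site at rpl-4 was kept in replicate 1 alone, and those at rps-26 and rpl-1 in replicate 2 alone. The intervals of these 2 lists do not overlap, and the difference was not tested. Nuclear pore and transport genes had 11 of 40 (27.5%), led by npp-3 (598), ran-1 (556) and ima-1 (496), where ran-1 encodes the GTPase that directs nuclear import. The proteasome had 6 of 33, led by rpn-3 (239), rpn-9 (160.0) and rpn-2 (157). Heat shock proteins and chaperonins had 11 of 64, led by cct-5 (759), cct-8 (353) and hsp-90 (243). Among members with a shared window, the share was 14.3% for mitochondrial ribosomal proteins (interval 5.70% to 31.5%). For the proteasome it was 27.3% (13.2% to 48.2%). Both intervals hold the 15.7% of all genes with a shared window. For heat shock proteins and chaperonins it was 37.9% (22.7% to 56.0%).

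Chromatin and synMuv genes, regulators of gene expression and chromatin structure, had 9 of 75 (12%) at divergent sites, led by lin-53 (424), lin-54 (300) and htz-1 (274). Oxidative phosphorylation had 11 of 75 (14.7%), led by ndub-8 (237), cox-6B (233) and ndua-8 (175). Splicing factors had 9 of 69 (13.0%), led by rsp-7 and snu-13, which share 1 site (132), and prp-40 (109.6). Translation factors and tRNA synthetases had 7 of 74 (9.46%), led by hars-1 (707), eef-2 (277) and eef-1A.1 (158). Of the members with a shared window, 26.5% of splicing factors (interval 14.6% to 43.1%) were at a divergent site. For translation factors and tRNA synthetases this share was 20% (10.04% to 35.9%). Both intervals hold the 15.7% of all genes with a shared window. For oxidative phosphorylation the share was 27.5% (16.1% to 42.8%). Histone genes mostly have a shared window, 40 of 50, and 4 of them were at a divergent site. This is 10% of those 40 (interval 3.96% to 23.1%), an interval that holds the 15.7% of all such genes. These 4 form the pairs his-67 / his-68 (202) and his-63 / his-64 (108).

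Sperm, chemoreceptor, nuclear hormone receptor, collagen and neuropeptide genes had few members at divergent sites. The sperm list had 1 of 86 members at a divergent site, spe-39, which faces spn-4. Chemoreceptors had 3 of 1268 (0.237%), among them sri-5 facing rsr-1 (179) and srz-97 facing clec-57 (112). Nuclear hormone receptors had 1 of 269, nhr-47 facing the chaperone gene dnj-19 (204), and cuticle collagens 3 of 173 (1.73%, interval 0.591% to 4.97%), where the interval holds the 2.96% of all genes. The collagen gene col-38 faced rpl-5 (155), col-2 faced ndc-80, and col-71 faced Y49F6B.2 (89.0). Neuropeptides and insulins had 0 of 140 (Wilson interval 0% to 2.67%). A limit of 3 counts allows a share of up to 2.14%. Shared windows were had by 34.9% of sperm genes, 14.5% of collagens, 10.1% of chemoreceptors, 8.57% of neuropeptides and insulins and 7.06% of nuclear hormone receptors, against 18.9% of all protein-coding genes. Of the members with a shared window, 3.33% of sperm genes (interval 0.591% to 16.7%), 12% of collagens (4.17% to 30%), 2.34% of chemoreceptors (0.80% to 6.66%), 0% of neuropeptides and insulins (0% to 24.2%) and 5.26% of nuclear hormone receptors (0.935% to 24.6%) were at a divergent site. The interval of the collagens holds the 15.7% of all such genes, and so do those of the sperm, neuropeptide and nuclear hormone receptor lists.

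At 68 of the 302 sites (22.5%, interval 18.2% to 27.6%) at least 1 gene belonged to the 4 lists of germline and division genes, against 90 of 835 one-strand sites (10.8%, 8.85% to 13.1%). A divergent site has at least 2 genes and so more chances of such a match. Counted by gene, the share was 72 of 591 (12.2%, interval 9.79% to 15.1%) at divergent sites and 87 of 801 (10.9%, 8.89% to 13.2%) at one-strand sites only, and these intervals overlap. Among all genes with a shared window it was 4.0%.

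Pairs with such genes on both strands were few in the genome, 13 of 1925, and 7 of the 13 were bound (53.8%, interval 29.1% to 76.8%). Pairs with 1 such gene were bound at 60 of 132 (45.5%, 37.2% to 54%), and pairs with none at 231 of 1780 (13.0%, 11.5% to 14.6%). Besides bmk-1 / coh-3, mei-2 / syp-6 and coh-4 / pid-5, the bound pairs were rec-8 / mex-5 (539), zhp-2 / lotr-1 (438), orc-5 / cyb-1 (185) and polq-1 / him-10 (97.6). The site at polq-1 / him-10 was kept in replicate 2 alone and the other 6 in both replicates. The gene him-10, a member of the meiosis list, encodes a kinetochore protein.

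The 6 such pairs without a site were atl-1 / hcp-2, cey-3 / rmh-1, dcr-1 / apc-2, emb-27 / rrf-3, pgl-1 / him-3 and tofu-4 / htp-3. Candidates below the threshold lay at 4 of them, with scores of 516 at atl-1, 80 at cey-3, 379 at dcr-1 and 23 at pgl-1. All 4 scores are below 830, the lowest score of a kept site.

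Pairs that join other groups were also seen among the 28 sites with listed genes on both strands. They are given as examples, since unbound pairs of this kind were not counted. The site at rpl-12 / lin-54 (300) joins a ribosomal protein gene to one for a DNA-binding subunit of the DRM complex, and lin-61 / bub-1 (267) a chromatin gene to a checkpoint kinase gene. The site at rps-19 / hsr-9 had a signal of 252, hsp-110 / rpn-3 239, pgam-5 / npp-21 238, ify-1 / rpl-22 174 and mdf-2 / nduv-3 167. The ify-1 product is securin and that of mdf-2 a checkpoint protein. Signals of 158 at eef-1A.1 / rfc-4, 113 at rpn-5 / scc-1 and 91.3 at ddx-15 / ucr-1 followed. Pairs of 1 kind were snu-13 / rsp-7 (132) and snr-3 / rsp-5 (90.7) of splicing, and rps-10 / rpl-24.1 (118) and rps-14 / rpl-36 (75.4) of the ribosome. The sites at rps-14 / rpl-36 and rps-9 / lsm-1 (79.2) were kept in neither replicate.

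Starts of noncoding genes lay in the window of 37 divergent sites. No such count is given here for other sites or for unbound windows, so no preference can be read from this number. The annotated class was ncRNA at 24 sites, piRNA at 6, small nucleolar RNA at 5, small nuclear RNA at 3 and microRNA at 1. The microRNA start, cel-mir-5549, lay at eef-1A.1 / rfc-4, small nucleolar RNA starts at rpl-7A / set-21 and ska-3 / rps-12, and a spliced leader RNA gene, sls-2.8, at tim-1 / Y75B8A.23. At these sites the signal cannot be told apart from binding at the noncoding gene.

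The 3 words shown in capitals were as common at divergent as at one-strand sites and rare at unbound pairs. Within 50 bp of the summit, 69 of 302 divergent sites (22.8%, interval 18.5% to 27.9%) held at least 1, against 20% of one-strand sites (17.4% to 22.8%) and 17.8% of sites outside promoters (15.4% to 20.6%). At the midpoints of 1590 unbound pairs the share was 2.08% (1.48% to 2.90%). The words were chosen with earlier results of these data known, so these shares describe them and test nothing. GC content differed between the windows too, with a median of 45.5% at divergent summits, 43.6% at one-strand summits and 33.7% at unbound midpoints. The part of base composition in the share of words was not tested.

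By word, AAGGCGCA was at 34 divergent sites (11.3%), AAAGGCGC at 35 (11.6%) and GCGAGACC at 38 (12.6%). At one-strand sites the shares were 11.6%, 11.4% and 9.82%, and at sites outside promoters 12.9%, 13.1% and 6.47%. Words of both kinds, the overlapping words and GCGAGACC, stood together at 9 divergent sites. Allowing at most 1 mismatch, 148 divergent sites (49.0%, interval 43.4% to 54.6%) held a word, against 48.9% of one-strand sites, 38.1% of sites outside promoters and 12.8% of unbound midpoints. Divergent sites with a word had a median signal of 160.1, and those without one 133.

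Copies of the words lay on both strands and on either side of the summit. Within the 50 bp searched, their centres were a median of 14, 18.5 and 15.5 bp from the summit for AAGGCGCA, AAAGGCGC and GCGAGACC. With a search of 100 bp on each side, 26.5% of divergent sites held a word, against 22.8% with 50 bp. Plus-strand copies made up 44.1%, 42.9% and 39.5%, and copies that point at the nearer gene 47.1%, 42.9% and 47.4%, with Wilson intervals that all include 50%. Over the whole shared window a word was present at 82 of 294 bound head-to-head pairs (27.9%, interval 23.1% to 33.3%) and at 84 of 1590 unbound ones (5.28%, 4.29% to 6.49%). Put the other way, 82 of the 166 pairs with a word were bound (49.4%) and 212 of the 1718 without one (12.3%). Kept sites occurred without a word, and words without a kept site.

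The spacing for which the 5 sequences above were picked also occurred at other sites. Within 50 bp of the summit, 36 sites of all classes held AAGGCGCA with GCGAGACC downstream on the other strand, and at 19 of them exactly 19 bases lay between. Divergent sites held 9 pairs of the words, 6 in this orientation, of which 4 had 19 bases between. The genome holds 56 copies with this spacing, and 26 of them (46.4%, interval 34% to 59.3%) lay inside a site, 5 divergent, 12 one-strand and 9 outside promoters. Of the 9 copies that touch a shared window, 5 were inside a site. Spacings from 0 to 60 bases were counted for comparison. At 16 bases there were 64 copies, of which 6 lay inside a site and none inside a divergent one, while at 20 bases 8 of 9 copies lay inside a site, 1 of them divergent. The scan was made after the spacing had been seen.

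The authors' ranked list of the pair, which takes in the kept sites, held 613 candidates with a summit in a shared window, of which 307 overlapped no kept site. At the edges of the rule, 30 sites of the list would join with windows 50 bp longer upstream and 20 bp longer downstream (median signal 186), and 35 would leave with windows shorter by as much (median 142). Both medians are above the 134.9 of all divergent sites.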

How the data were processed

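Sites were analysed from 2 ChIP-seq replicates of 1 group, taken from the sample labels. Per the file headers and descriptions, the authors deposited ranked and thresholded site lists on assembly ce11, made with the irreproducible discovery rate (IDR) for each replicate and for the pair, each against a control (not analysed here). The aligner is not given in the sources used here, nor is the peak caller. Signal is a deposited value of unstated scaling, and the score, also deposited, is an IDR score on a scale up to 1000. The summit is the deposited offset added to the site's start. The 16 columns of per-replicate values in the ranked lists of the pair have no sample label, so they stayed unused.

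Starts came from Ensembl release 115 on WBcel235, and sequence from the RefSeq copy of that assembly. Overlap meant at least 1 shared bp. The words were sought on either strand, up to 50 bp from the summit. Intervals are 95% Wilson intervals for shares and exact Poisson intervals for densities, and the limit for a count of 0 is 3 counts. Library depth is unknown, so they cover counting error over sites, genes or pairs only. No test was run, since there is 1 group and sites are not replicates. The members, the gene lists, the words and the comparisons were chosen with earlier results of these data known. In the lists, 13 symbols had no match, and rpl-36.A was not matched as a ribosomal protein gene.

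Named sites are the 15 strongest, the 3 strongest members of each list, sites with listed genes on both strands, the 5 shortest and 5 longest distances, those on X and the 3 weakest. The 6 strongest sites with a word and 2 without are printed, outside the first chromosome, and 1 named pair is not reported here. Alternatives were the conservative list, each replicate alone, 1 start per gene, other windows, any overlap with both windows and other word windows. The rule was tested on simulated data. Software was matplotlib 3.10.9, pandas 2.3.3, scipy 1.17.1 and numpy 2.4.6 under Python 3.11.15.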

Additional observations from a re-analysis of the deposited data

Results flagged for a closer look

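The ranked list of the pair, which the counts of kept sites do not use, held 307 candidates in windows shared by both strands that overlap no kept site. They had a median signal of 38.6, from 2.1 to 110.4, and a median score of 67, from 23 to 825. All but 1 lay at gene pairs with no kept site, 21 (6.84%) held a word, and 8 were on X. The strongest, at F14D2.14 / bath-29 (chrII:3348165-3348440), had a signal of 110.4 with a score of only 50.

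Of these candidates, 8 overlapped a site that 1 replicate's own list kept, among them nst-1 / cct-4 (score 806, replicate 1) and sftb-1 / R10E4.1 (score 825, replicate 2). Seen from the replicates, 3 of the 220 divergent sites of replicate 1 and 6 of the 254 of replicate 2 overlapped no site of the pair. The 3 were nst-1 / cct-4, prp-9 / mrps-18B and memi-3 / cyp-31A2.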

How the results depend on the processing

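Of 88 alternative values for 10 results, 67 stayed within the limits set by the spread or by 1.5 times the count. Windows that reach 200 bp upstream and 100 bp downstream left 77 divergent sites, 12% of promoter sites, with a median distance between starts of 212 bp, 58.4% of summits in the inner part, 14.3% with a word, 614 summits per Mb and 0 sites on X (0%). Windows of 1000 and 200 bp gave 475 sites, 34.4% of promoter sites, 578 bp, 58.3% in the inner part and 203 per Mb. Counting any overlap with both windows gave 464.5 bp and 494 per Mb. Words within 25 bp were at 16.9% of sites. Chosen after seeing the data, a match with at most 1 mismatch gave 49.0%, while merged neighbours and autosomes alone moved no value past its limit.

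Leaving out a replicate means using the other's own list. The number of divergent sites was then 220 to 254, the density 300.4 to 347 per Mb, the share with an overlapping site in the other replicate 78.0% to 87.7%, and the median percentile 52.5 to 56.2. No paired analysis was possible because there is 1 group and no test. The window length, more than the list, set the number of sites. With the depth unknown, sites absent from a list were not detectable at its threshold, which does not show that they are absent.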
